A study of Homo sapiens with 12 samples.

Results

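The 6 genes described here encode the cleavage module of Integrator (INTS4, INTS9 and INTS11) and its tail module (INTS10, INTS13 and INTS14), 3 genes in each. They were chosen by name, as 6 of the 19974 protein-coding genes on chromosomes 1 to 22 and X, and include the genes of both Integrator proteins that were immunoprecipitated. The question asked of them was where the chromatin-bound proteins lay on the genes that encode the complex. Chromatin immunoprecipitation followed by sequencing was done with antibodies against INTS13, INTS11, HDGF, ZEB1 and ZNF609, with 2 libraries for each of the 5 proteins and 2 libraries of input chromatin taken with no antibody. All 12 came from wild-type HEK293T cells, a transformed line from human embryonic kidney, fixed with formaldehyde. The antibodies to INTS13, HDGF and ZEB1 were from Proteintech and that to INTS11 from Atlas Antibodies, and the ZNF609 antibody came from an earlier publication. No cells lacking one of these proteins were included, so what each antibody recovers without its target was not measured here. The 10 peak lists analysed, 1 for each immunoprecipitated library, pool all cells of a culture, and the share of cells in which a site was bound cannot be read from them.

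Integrator binds RNA polymerase II and cuts nascent RNA. It forms the ends of small nuclear RNAs and enhancer RNAs, and it ends transcription early at many protein-coding genes. INTS11 is its endonuclease, INTS9 is the inactive paralogue that pairs with it, and INTS4 is the scaffold that holds the pair. INTS10, INTS13 and INTS14 form the tail module, in which INTS13 and INTS14 bind each other, and which has been linked to recruitment by sequence-specific transcription factors. HDGF is a chromatin reader with a PWWP domain, ZEB1 is a zinc finger repressor that binds E-boxes, while ZNF609 also carries a zinc finger.

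Peaks covered the largest shares of the INTS11 and INTS14 genes, up to 67.8% and 36.6% under INTS13 peaks, and at most 5.54% of any other member in any list. By number, INTS14 held 81 of the 175 peaks on the members, INTS4, which is long, 39, INTS11 36, INTS13 14, INTS9 4 and INTS10 1. Peaks on a member include those outside the gene but within 1 kb of it. A gene was called for a protein where both of its lists held a peak that overlapped, by 1 bp or more, the window of 1 kb either side of the same gene end. INTS13 was called at 4 of the 6 members (INTS4, INTS11, INTS13 and INTS14), against 64.2% of all protein-coding genes. INTS11 was called at 1 of 6 (INTS14), against 18.3% of coding genes. HDGF was called at 2 of 6 (INTS11 and INTS14), against 24.1%. ZEB1 and ZNF609 were called at 0 of 6, against 4.18% of coding genes for ZEB1 and 1.75% for ZNF609. Only part of these calls rests on strong peaks: at a -log10 q of at least 5, the INTS13 calls came to 1 member (against 16.9% of coding genes), those of INTS11 to 0 (2.39%) and those of HDGF to 1 (2.34%). INTS11 replicate 1 alone would call 4 members, against 50.02% of coding genes, and replicate 2 alone 1, against 22.2%. No test was made of these counts, and with 6 genes nothing particular to the members is read from them.

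The gene body was then added to the windows. INTS13 peaks lay in 5 members in both lists, all but INTS10, against 79.7% of coding genes. INTS11 peaks did so in INTS11 and INTS14, 2 of 6 against 42.8%. HDGF peaks did so in 4 of 6 (INTS4, INTS11, INTS13 and INTS14), against 55.4%. ZEB1 and ZNF609 peaks did so in INTS14 alone among the members, 1 of 6 each, against 16.2% for ZEB1 and 9.79% for ZNF609. INTS14 was thus the 1 member with a peak in 10 of 10 lists, beside 7 lists for INTS11, 5 each for INTS4 and INTS13, 3 for INTS9 and 1 for INTS10. The shares of all coding genes with a peak in as many lists were not counted, so nothing particular to INTS14 is read from this. Counted at the gene ends, INTS14 was called for 3 proteins, INTS11 for 2, INTS4 and INTS13 for 1 and INTS9 and INTS10 for 0. Among all coding genes 34.6% were called for 0 proteins, 35.1% for 1, 18.2% for 2, 8.34% for 3, 2.52% for 4 and 1.19% for 5.

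**Figure D1:**
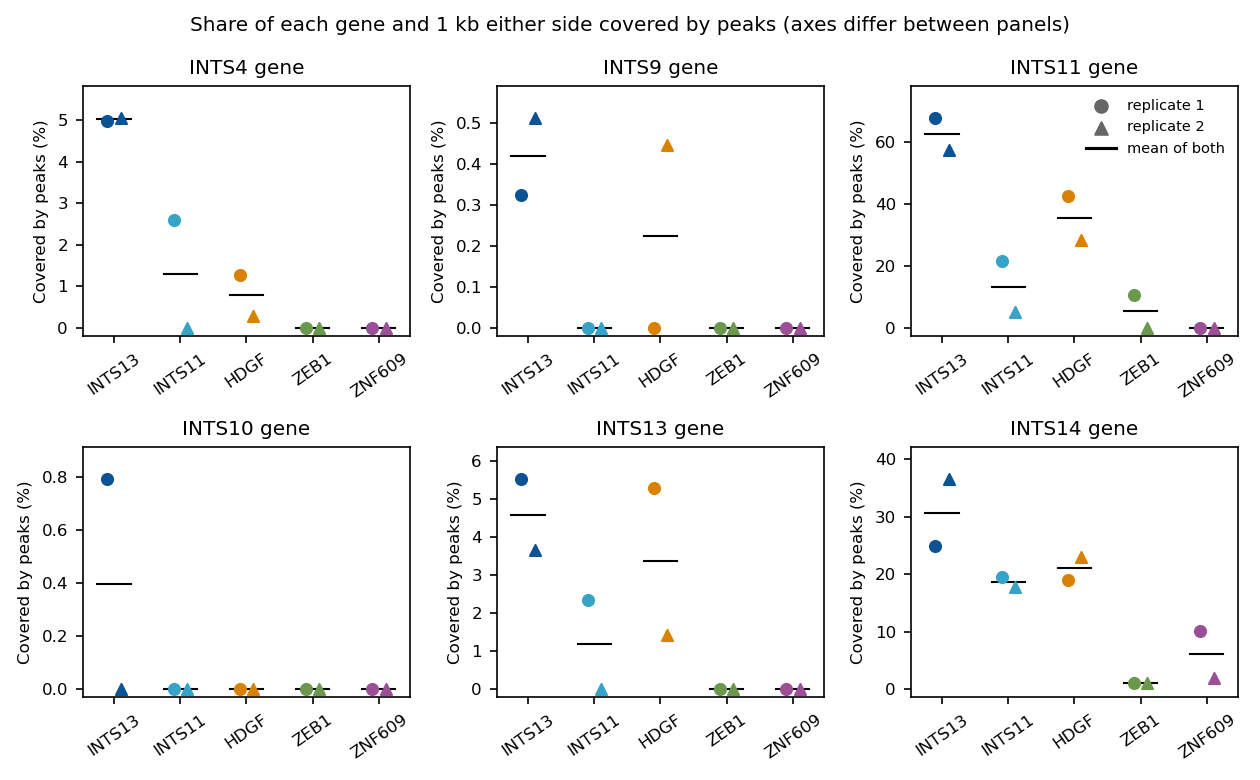
Share of each member gene and 1 kb either side of it covered by peaks, in percent on a linear axis that differs between panels, for each protein; circles are replicate 1, triangles replicate 2 and lines the mean of both. The INTS11 gene reaches 67.8% and 57.2% under INTS13 peaks, while the INTS9 and INTS10 genes stay below 1% in every list.

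The peaks on the members were of middling strength. The 6 genes held 36 and 34 in the INTS13 lists, 23 and 12 in the INTS11 lists, 32 and 26 in the HDGF lists, 4 and 1 in the ZEB1 lists, and 5 and 2 in the ZNF609 lists. The median peak had a -log10 p above that of 49.7% of the peaks in its own list, and the members ranged from the foot of a list to above 99.3% of it. A -log10 q of 5 or more was reached by 13 of the 175. These were 9 of 70 INTS13 peaks (12.9%, against 15.1% and 12.1% of all peaks in the INTS13 lists), 4 of 58 HDGF peaks (6.90%, against 6.19% and 4.47%) and 0 of 35 INTS11 peaks (against 9.32% and 9.52%). They lay on INTS14 (5 INTS13 peaks and 1 HDGF peak), INTS11 (1 INTS13 peak and 3 HDGF peaks), INTS4 (2 INTS13 peaks) and INTS13 (1 INTS13 peak). The last of these lies wholly outside the INTS13 gene, starting 103 bp from its end. The fold of a peak is the authors' ratio of its height to the background of its own list, so folds are described within a list and by rank.

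The INTS11 gene, which encodes the endonuclease, is the shortest member, at 13.1 kb (chr1:1311600-1324660, minus strand). INTS13 peaks covered 67.8% and 57.2% of it with 1 kb either side, more than in 88.3% and 86.3% of coding genes in the same lists. Their mean was 62.5% ± 7.52 (SD, n = 2), with 6 peaks in each list, and 5 of the 6 in replicate 1 overlapped a peak of replicate 2. HDGF peaks covered 42.4% and 28.1%, more than in 95.4% and 93.2% of coding genes, with 7 and 8 peaks. The INTS13 values lay above the HDGF values in both replicates, but the INTS13 lists are longer (416964 and 341913 peaks against 147715 and 114789 for HDGF), and the ranks among coding genes run the other way.

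INTS11 protein on its own gene was found at different places in its replicates. Replicate 1 had 5 peaks, covering 21.4%, and replicate 2 had 1 peak, covering 4.95%, a mean of 13.2% ± 11.6 (SD, n = 2). None of the 5 overlapped the 1, although both shares were above those of most coding genes, 83.3% and 81.1% of them. In these lists 31.8% and 55.5% of coding genes had no peak, so the like ranks do not show like binding. The strongest of the 5 (chr1:1317801-1318520) had a fold of 2.34 and ranked above 70.1% of its list, and the peak of replicate 2 (chr1:1313739-1314484) had a fold of 2.31 and ranked above 57.5% of its list. ZEB1 had 3 peaks in replicate 1, covering 10.5%, and none in replicate 2. ZNF609 had no peak in either list.

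The ends of the INTS11 gene are shared with other genes. An end of CPTP, which encodes a lipid transfer protein, lies 142 bp from its upper end, PUSL1, a pseudouridine synthase-like gene, overlaps its lower end by 78 bp, and the microRNA gene MIR6727 lies within it. Here the upper end is the one with the higher coordinate, which is the transcription start of INTS11. At the upper end INTS13 had 1 peak in each list, and HDGF and ZEB1 each had 1 peak in replicate 1 only. At the lower end the HDGF replicate 2 list had a peak at chr1:1310844-1311930 with a fold of 5.57 and a -log10 q of 8.36, above 99.3% of its list. HDGF replicate 1 had its peak nearest that end at chr1:1312264-1313728, with a fold of 4.34 and a -log10 q of 5.71. It did not overlap that replicate 2 peak, so the HDGF call at a -log10 q of at least 5 rests on separate sites. It did overlap a further replicate 2 peak at chr1:1312296-1313000, with a fold of 4.18 and a -log10 q of 4.40. The INTS13 peak of replicate 1 at the same end (chr1:1308006-1312048) was 4.04 kb wide and had a fold of 3.38, above 95.9% of its list, against a fold of 2.29, above 65.7%, in replicate 2. These peaks cannot be assigned to INTS11 rather than to PUSL1 or CPTP by position.

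INTS4, the scaffold of the cleavage module, is 120 kb long (chr11:77874362-77994668, minus strand) and was thinly covered. INTS13 peaks covered 4.98% and 5.06% of it, more than in 29.2% and 34.2% of coding genes, with 13 peaks in each list. Of these, 4 in replicate 1 and 5 in replicate 2 overlapped a peak of the other list. INTS11 had 7 peaks (2.59%) in replicate 1 and none in replicate 2. HDGF covered 1.26% with 5 peaks in replicate 1 and 0.289% with 1 peak in replicate 2, which did not overlap. ZEB1 and ZNF609 had no peak. AAMDC overlaps 31.7 kb of the far end of the gene, and no other gene end lies within 1 kb of its start.

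The start of INTS4 held the INTS13 peak of highest rank on any member. In the INTS13 replicate 1 list it ran over chr11:77994391-77996214 with a summit 184 bp outside the gene, a fold of 4.07 and a -log10 q of 12.3, above 99.2% of that list. The INTS13 replicate 2 list held 2 weaker peaks there, with folds of 1.89 and 2.09, above 14.0% and 41.1% of that list. The position was shared by both libraries, and its rank was not. INTS4 has the pseudogene copies INTS4P1 and INTS4P2 on chromosome 7, and how reads that fit several places were handled is not given in the sources used here. INTS13 had 4 and 3 peaks on INTS4P1, covering 1.39% and 1.65%, and 0 on INTS4P2.

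The start regions of INTS4 and INTS11 are printed since INTS13 peaks of both replicates lay on them. Each is the RefSeq promoter of GRCh38.p14, 300 bases from 250 before to 50 after the start, read 5′ to 3′ on the minus strand. In INTS4 (chr11:77994619-77994918) capitals mark the 106 bases under a peak of both INTS13 lists and of HDGF replicate 2. In INTS11 (chr1:1324611-1324910) capitals mark matches to the motifs searched.
INTS4: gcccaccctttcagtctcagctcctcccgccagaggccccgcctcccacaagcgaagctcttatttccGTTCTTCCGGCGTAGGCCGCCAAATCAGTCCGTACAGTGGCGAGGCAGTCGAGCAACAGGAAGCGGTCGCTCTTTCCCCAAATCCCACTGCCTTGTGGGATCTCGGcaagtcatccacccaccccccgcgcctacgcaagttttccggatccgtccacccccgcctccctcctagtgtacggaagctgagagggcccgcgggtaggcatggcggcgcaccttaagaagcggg
INTS11: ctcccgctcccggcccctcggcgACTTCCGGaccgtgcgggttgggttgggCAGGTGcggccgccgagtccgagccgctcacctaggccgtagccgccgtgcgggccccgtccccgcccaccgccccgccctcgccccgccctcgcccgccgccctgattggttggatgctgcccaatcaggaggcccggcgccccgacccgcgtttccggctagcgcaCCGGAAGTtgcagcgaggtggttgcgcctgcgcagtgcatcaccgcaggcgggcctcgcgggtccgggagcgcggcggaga

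INTS13 peaks covered 300 and 232 of the 300 bases at INTS4 and all 300 bases in both lists at INTS11. HDGF covered 174 bases at INTS4 in replicate 2 and 0 in replicate 1, and INTS11, ZEB1 and ZNF609 covered 0 bases of either. The INTS4 promoter had a GC content of 63.7% and 25 CpG, and the INTS11 promoter 76.7% and 44 CpG, more CpG than 95.8% of the 34961 promoters in the table. The medians over all promoters were 58.7% and 14 CpG. Searched on both strands, the INTS11 promoter held the E-box CAGGTG at base 52, the ETS motif CCGGAAGT at base 220 and the same ETS motif on the other strand at base 24, counted from the 5′ end of the printed strand, and these did not overlap. CAGGTG occurs in 20.6% of all promoters of this length and CCGGAAGT in 4.14%. The EGR motif GCGTGGGCG, held by 0.792% of promoters, and GCGCATGC, the core of the NRF1 site, held by 3.06%, were not among the letters of the member promoters. A ZEB1 peak did not cover the E-box in either list.

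**Figure D2:**
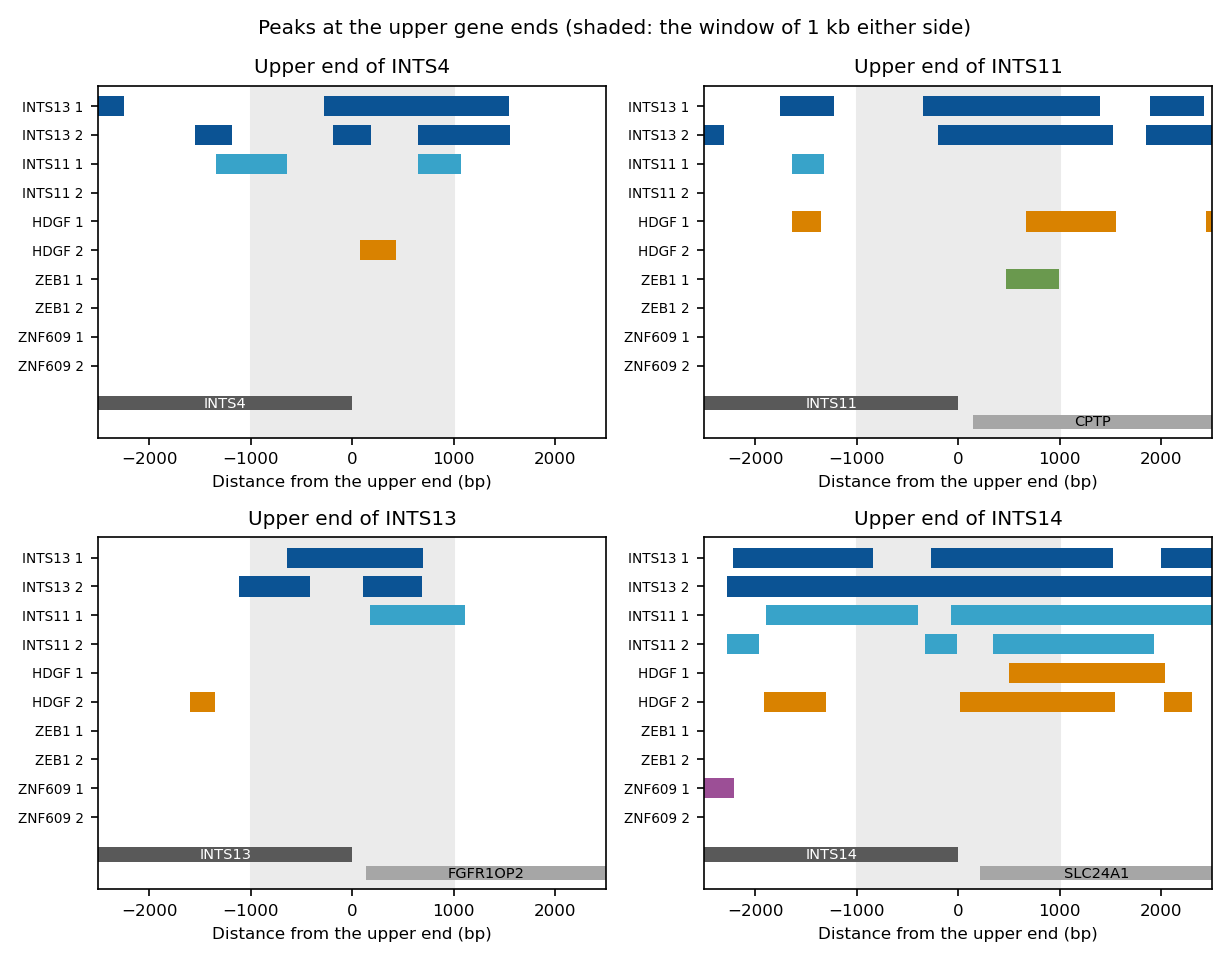
Peaks of all 10 lists within 2.5 kb of the upper end of 4 members, by distance in bp from that end; negative values lie inside the member, grey bars are genes and the shaded band is the window of 1 kb either side. INTS13 peaks lie in the band at all 4 genes in both replicates, while INTS11 peaks of both replicates lie in it at INTS14 only.

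INTS14 encodes the tail subunit that pairs with INTS13 (chr15:65578757-65611131, minus strand, 32.4 kb). It was the member with peaks of the most proteins in both of their lists. INTS13 peaks covered 24.9% and 36.6%, INTS11 peaks 19.5% and 17.7%, HDGF peaks 19.1% and 23.1%, ZEB1 peaks 1.14% and 0.975%, and ZNF609 peaks 10.2% and 2.02%. The INTS13 share was above that of 57.3% and 71.5% of coding genes, and the INTS11 share above that of 81.8% and 92.1%. HDGF was above 84.7% and 90.9%, ZEB1 above 79.2% and 84.1% and ZNF609 above 96.7% and 94.6%. Within their own lists INTS13 therefore placed INTS14 lowest of the 5 proteins. The ranks have unlike floors, since 70.8% and 77.0% of coding genes held no ZEB1 peak and 78.7% and 87.4% no ZNF609 peak. For INTS13 it was 13.9% and 19.1%. ZEB1 reached its ranks with 1 peak in each list, so this order is not read as a difference in binding. The replicates of INTS11 and of HDGF differed little, with means of 18.6% ± 1.27 and 21.1% ± 2.85, and those of ZNF609 differed more, with a mean of 6.09% ± 5.76 (SD, n = 2 each).

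Replicate peaks on INTS14 overlapped for INTS13, INTS11 and HDGF. Of 12 INTS13 peaks in each list, 10 in replicate 1 and 9 in replicate 2 overlapped a peak of the other. For INTS11 it was 5 of 10 and 6 of 11, and for HDGF 9 of 14 and 8 of 13. The single ZEB1 peaks of the 2 lists did not overlap, and none of the 5 ZNF609 peaks of replicate 1 overlapped the 2 of replicate 2. Widest among the ZNF609 peaks was that at chr15:65607159-65608927 in replicate 1, with a fold of 2.93, above 76.3% of its list.

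The start of INTS14 is 219 bp from an end of SLC24A1, which encodes a sodium, calcium and potassium exchanger, and its lower end is 408 bp from HACD3, a fatty acid elongation gene. INTS13 lay over the start in both lists, at chr15:65610860-65612657 in replicate 1 with a fold of 3.29, above 94.9% of the list, and at chr15:65608851-65613684 in replicate 2 with a fold of 2.81, above 93.5%. INTS11 had 2 peaks at this end in each list, and HDGF had 1 in each. At the lower end INTS13 and HDGF had 1 peak in each list, and INTS11 had 1 in replicate 1 only. HDGF replicate 2 was strongest there, with a fold of 4.88 at chr15:65578928-65579870, above 97.2% of its list, against a fold of 3.16, above 49.7%, in replicate 1. ZEB1 and ZNF609 had no peak at either end. The peaks at these ends cannot be assigned to INTS14 rather than to SLC24A1 or HACD3 by position.

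INTS13 encodes the other partner of that pair, and its protein had the longest peak lists (chr12:26905181-26938332, minus strand, 33.2 kb). INTS13 peaks on the INTS13 gene covered 5.54% and 3.65%, more than in 30.7% and 30.9% of coding genes, so the gene was among the less covered in its own protein's lists. HDGF covered 5.30% and 1.44%, INTS11 covered 2.35% in replicate 1 and 0 in replicate 2, and ZEB1 and ZNF609 had no peak. An end of FGFR1OP2 lies 138 bp from its upper end. There INTS13 replicate 1 had 1 peak at chr12:26937692-26939034, with a fold of 2.77, above 81.1% of its list. Replicate 2 had 2 peaks, at chr12:26937216-26937918 with a fold of 2.02, above 31.6% of its list, and at chr12:26938435-26939015 with a fold of 2.68, above 90.2%. Each of these overlapped the single peak of replicate 1. The stronger of them starts 103 bp outside the INTS13 gene. INTS11 replicate 1 had a peak at chr12:26938506-26939441 with a fold of 2.00, and replicate 2 had none. That peak, the only INTS11 peak counted here, starts 174 bp outside the INTS13 gene and lies within FGFR1OP2. Peaks at this end cannot be assigned to INTS13 rather than to FGFR1OP2 by position.

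The start regions of INTS14 and INTS13 are printed to show what lay under these peaks, in the same form as those of INTS4 and INTS11. In INTS14 (chr15:65611082-65611381) capitals mark the 41 bases under a peak of both INTS13 lists and both INTS11 lists. In INTS13 (chr12:26937932-26938231) capitals mark the last 50 bases, after a start that RefSeq places 351 bp inside the upper end of the gene.
INTS14: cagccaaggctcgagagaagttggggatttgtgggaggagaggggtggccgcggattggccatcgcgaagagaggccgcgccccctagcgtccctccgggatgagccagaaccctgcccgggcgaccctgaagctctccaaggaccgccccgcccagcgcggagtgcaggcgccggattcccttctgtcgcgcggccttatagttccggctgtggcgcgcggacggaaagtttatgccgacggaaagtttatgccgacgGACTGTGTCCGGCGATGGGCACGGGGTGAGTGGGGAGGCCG
INTS13: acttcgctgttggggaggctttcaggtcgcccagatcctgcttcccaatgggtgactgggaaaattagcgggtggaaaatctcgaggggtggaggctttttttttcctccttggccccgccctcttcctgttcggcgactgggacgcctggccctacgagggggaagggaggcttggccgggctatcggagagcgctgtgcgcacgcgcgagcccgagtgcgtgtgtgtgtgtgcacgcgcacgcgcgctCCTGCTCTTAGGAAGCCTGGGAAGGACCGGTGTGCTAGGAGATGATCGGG

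At INTS14 all 300 bases lay under INTS13 peaks in both lists, 300 and 41 under INTS11 peaks, and 0 and 235 under HDGF peaks. At INTS13 the INTS13 peaks covered 300 bases in replicate 1 and 0 in replicate 2, where the printed bases fall between the 2 peaks. The other 4 proteins covered 0 bases there, as did ZEB1 and ZNF609 at INTS14. GC content was 67.3% with 33 CpG at INTS14 and 63.0% with 25 CpG at INTS13.

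**Figure D3:**
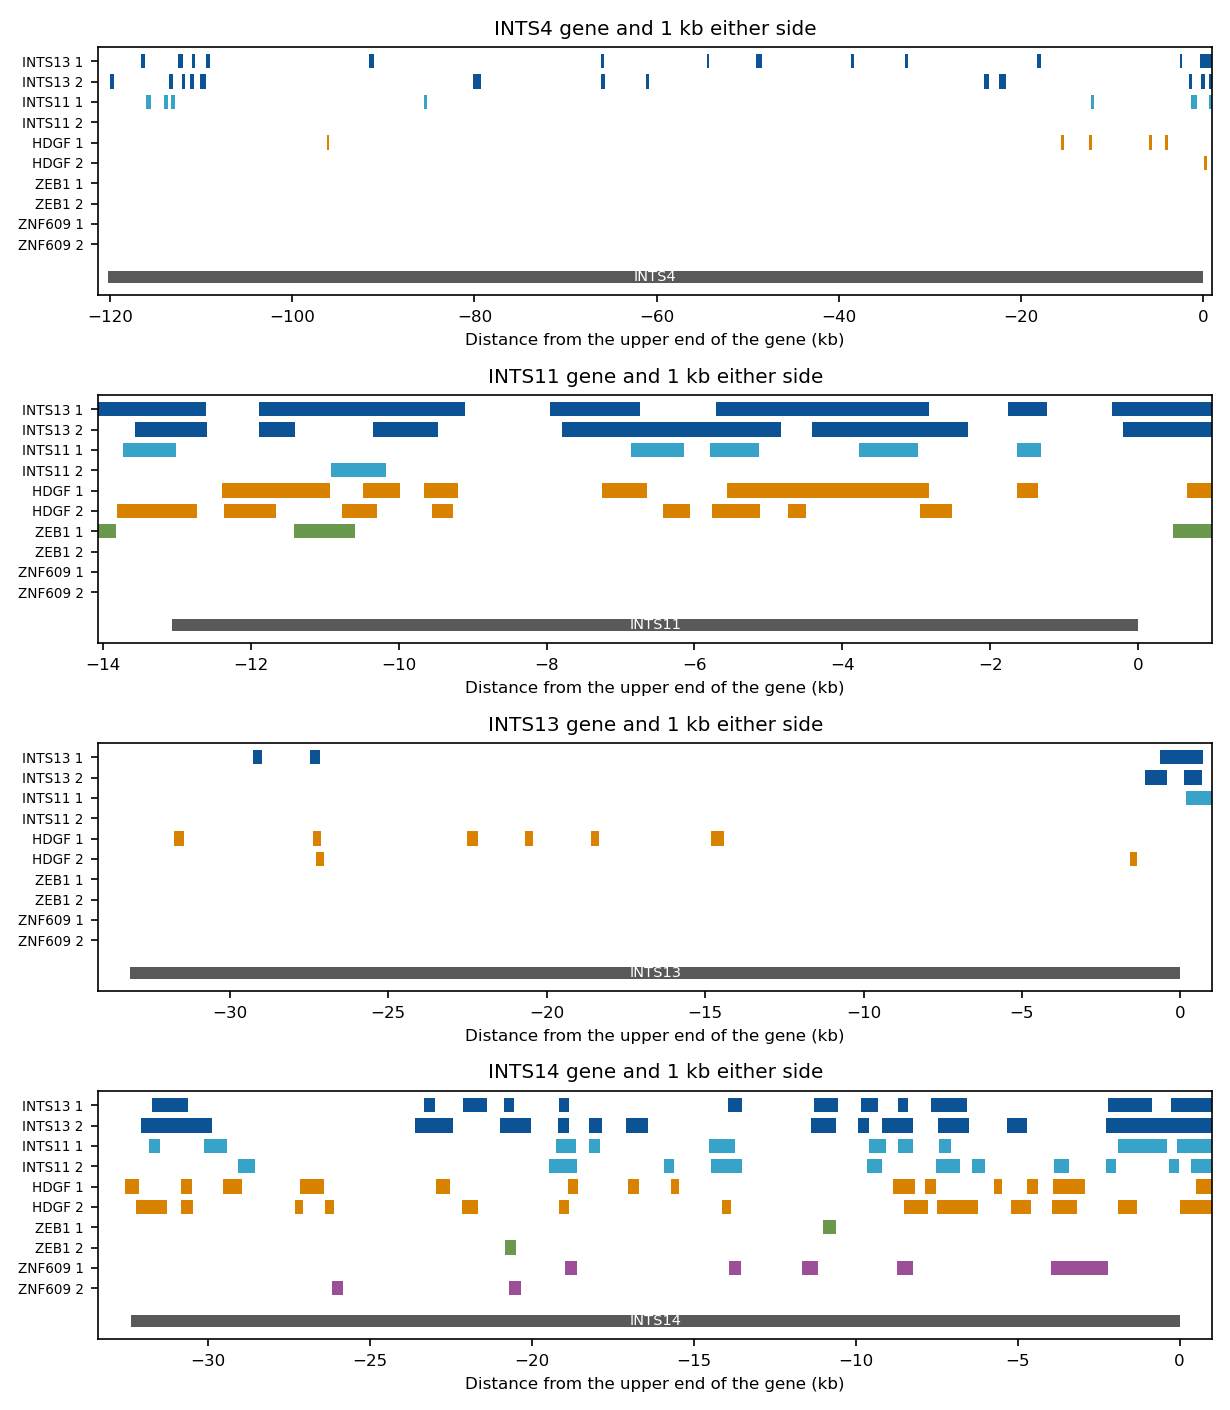
Peaks of all 10 lists over INTS4, INTS11, INTS13 and INTS14 and 1 kb either side, by distance in kb from the upper end of each gene, with scales that differ between panels; each bar is a peak. The INTS14 gene holds peaks in 10 of 10 lists, though those of ZEB1 and of ZNF609 do not overlap between replicates. Peaks on INTS4 and INTS13 are sparse and mostly unmatched between replicates.

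INTS9 and INTS10 were close to free of peaks. INTS9, the paralogue that pairs with INTS11, is 122 kb long (chr8:28767661-28889969), and INTS10, the third tail subunit, is 34.7 kb long (chr8:19817416-19852067). INTS13 covered 0.323% and 0.512% of INTS9 with 1 peak in each list, and these lay apart. HDGF covered 0 and 0.446% of INTS9, with 0 and 2 peaks, and the other proteins had none. INTS10 held 1 peak in all, in INTS13 replicate 1 near the lower end, which covered 0.791% and had a fold of 2.34. The ends of INTS9 held no peak of any list, and an end of HMBOX1, which encodes a homeobox protein, is 147 bp from its upper end.

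The stretch of chromosome 8 that holds both genes was poor in peaks as a whole. Below 35 Mb, a boundary chosen after seeing the data, the INTS13 lists held 8.03 and 1.80 peaks per Mb, against 95.7 and 74.0 per Mb on the rest of the chromosome. HDGF held 1.43 and 0.971 per Mb against 20.5 and 15.6, and INTS11 held 0.200 and 0 against 24.8 and 6.01. Of the 236 coding genes in this stretch, 1 was called for INTS13 at a gene end (0.424%) and 0 for each other protein. Why this stretch held few peaks, and its part in the values of INTS9 and INTS10, was not tested.

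Members with high coverage lay where peaks were dense. Relative to the mean 1-Mb bin of each list, the bin of INTS11 had a median density over the 10 lists of 2.48 and that of INTS14 of 2.33, while those of INTS4, INTS13, INTS9 and INTS10 had 0.457, 0.293, 0.00778 and 0. The median hides differences between proteins. In the INTS13 lists the INTS4 bin had densities of 1.41 and 1.45, above the mean bin, although INTS13 peaks covered little of the INTS4 gene. Each bin includes its member. Mean INTS13 coverage put the members in the same order, but INTS4 and INTS13 (5.02% and 4.59%) did not differ beyond their replicates, nor did INTS9 and INTS10 (0.418% and 0.396%). Each gene was then set against the 500 kb either side of it. The INTS11 gene was covered above its flanks in both lists by INTS13 (67.8% and 57.2% against 47.4% and 39.8%), INTS11 (21.4% and 4.95% against 11.9% and 2.07%) and HDGF (42.4% and 28.1% against 13.7% and 11.1%). INTS14 was above its flanks in both lists for INTS11 (19.5% and 17.7% against 15.0% and 6.77%), HDGF (19.1% and 23.1% against 10.0% and 8.13%) and ZNF609 (10.2% and 2.02% against 1.32% and 0.602%). For INTS13 protein it was not, with 24.9% against 25.3% in replicate 1 and 36.6% against 28.7% in replicate 2.

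By this measure INTS13 exceeded the flanks at 1 of 6 members (INTS11), against 43.2% of coding genes. INTS11 did so at 2 of 6, against 21.6%, and HDGF at 3 of 6 (INTS11, INTS13 and INTS14), against 36.0%. ZEB1 did so at 0 of 6, against 8.27%, and ZNF609 at 1 of 6, against 4.74%. The INTS4 gene lay below its flanks for INTS13, with 4.98% and 5.06% against 12.6% and 12.2%. HDGF on the INTS13 gene, with 5.30% and 1.44%, was above flanks at 1.14% and 0.764%.

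**Figure D4:**
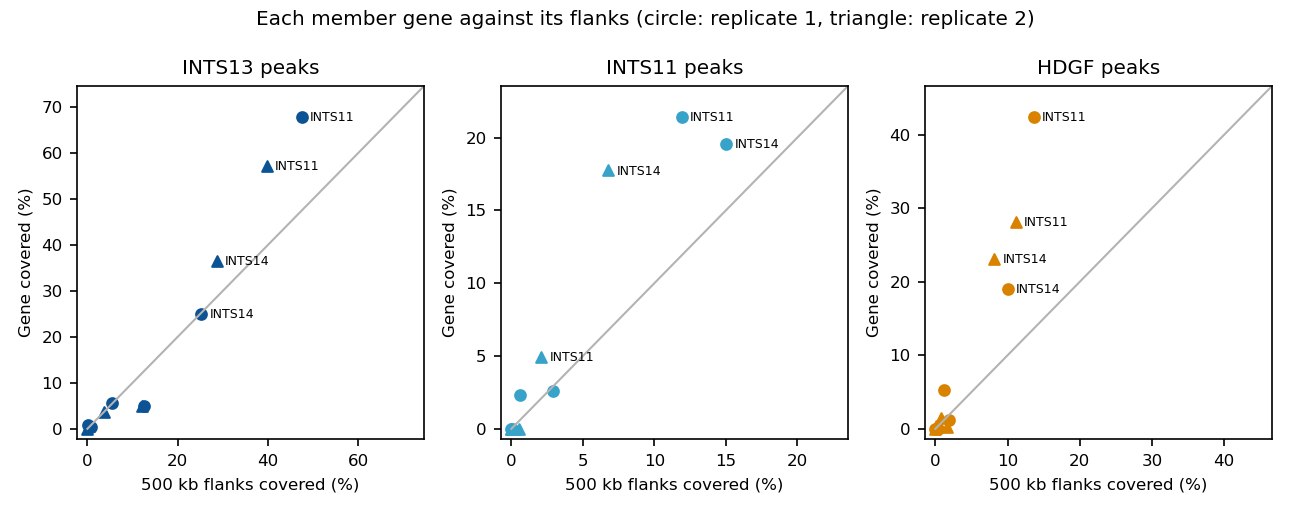
Share of each member gene covered by peaks (vertical, percent) against the share of its flanks of 500 kb either side (horizontal, percent) for INTS13, INTS11 and HDGF peaks; circles are replicate 1, triangles replicate 2, and the grey line marks equal shares. The INTS11 gene stands above the line in all 6 lists shown, at 67.8% and 57.2% against 47.4% and 39.8% for INTS13 peaks and at 42.4% and 28.1% against 13.7% and 11.1% for HDGF peaks.

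INTS11 and INTS14 had bases under both lists of more than 1 protein, and these bases overlapped in part. On INTS14 the bases under both lists of a protein came to 6.81 kb for INTS13 (19.8% of the gene with 1 kb either side), 2.81 kb for INTS11 (8.16%) and 2.34 kb for HDGF (6.81%). Of the INTS11 bases 49.4% lay within the INTS13 bases, and of the INTS13 bases 20.3% lay within those of INTS11. Of the HDGF bases 37.6% lay within the INTS13 bases and 22.7% within the INTS11 bases. On INTS11 the HDGF bases (1.98 kb, 13.1% of the gene) lay within INTS13 bases for 46.6%, and INTS13 bases made up 46.6% of that gene. The share of HDGF bases within INTS13 bases was thus the same as the share of the whole gene. On the INTS13 gene the 173 HDGF bases and the 808 INTS13 bases had none in common.

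The genes of the other Integrator subunits and partners were counted in the same way. Of these 15 genes INTS13 was called at an end of 9 (60.0%, against 64.2% of all coding genes), INTS11 at 1 (INTS6L; 6.67% against 18.3%), HDGF at 4 (26.7% against 24.1%: INTS1, INTS5, INTS15 and NABP2, which encodes a single-strand DNA binding partner), and ZEB1 and ZNF609 at 0. The median share covered by INTS13, as the mean of both lists, was 7.91%, against 16.3% over all coding genes, and that covered by HDGF 3.48% against 1.93%. INTS5 had the highest INTS13 share, 59.2%, and INTS3 the lowest, 0. INTS3 lies in a stretch of 165 kb (chr1:153700756-153865681) with no peak in any of the 10 lists, and why was not tested. Genes of the machinery that cleaves messenger RNA 3′ ends, which has an endonuclease related to INTS11, gave 11 of 16 for INTS13, 68.8% against 64.2% (all but CPSF7, FIP1L1, CSTF2T, CSTF3 and RBBP6). INTS11 was called at 2 (12.5% against 18.3%), CPSF1 and CPSF3, of which CPSF3 is the endonuclease itself. HDGF was called at 4 (25.0% against 24.1%: CPSF3, CPSF4, CSTF3 and PCF11), and ZEB1 and ZNF609 at 0. Their median INTS13 share was 11.3%, with CPSF4 highest at 64.1%, and their median HDGF share was 7.43%.

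For each member, the 2 coding genes of other chromosomes with the most similar shares over the 10 lists were found by the mean absolute difference, in percentage points. INTS11 was nearest to GATD1 (2.29 points) and BSG, which encodes the surface protein basigin (2.34 points). INTS14 was nearest to ESCO1, a cohesin acetyltransferase gene (2.31 points), and the kinase gene HIPK1 (2.65 points). ESCO1 had INTS13 shares of 24.3% and 34.6% but 17.5% and 9.02% for INTS11. INTS4 was nearest to ASPN (0.130 points) and ASTE1 (0.157 points), and INTS13 to CCP110 (0.198 points) and CCNT2, which encodes a cyclin of an elongation kinase (0.272 points). INTS9 was nearest to CTDSPL2 (0.0387 points) and RAB27A (0.0447 points), and INTS10 to LURAP1L (0.00121 points) and DCUN1D1 (0.00128 points), all close to 0 in most lists, where likeness says little.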

How the data were processed

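The submitters' processing notes name MACS2, Bowtie, Picard, Trimmomatic and FastQC. Which versions and settings were used, which control the caller had, and which build, is not given in the sources used here. For each immunoprecipitated library the authors deposited 1 peak list, so peaks had been called per library. In each list the fold is the authors' linear ratio of peak height to background, the p-value and q-value are deposited as −log10 values, the deposited score is a whole number made from the −log10 q, and a further deposited column gives the summit offset. Gaps in the running peak numbers show that some called peaks are not in the lists analysed here, and neither their places nor the reason is known, so a stretch with few peaks may have held more. Contig names are those of GRCh38, which was taken as the build by inference. Read depth is unknown, and peak heights therefore carry no counting interval.

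The lists held 26417 to 417057 deposited peaks, of which 26409 to 416964 on chromosomes 1 to 22 and X were used. Within each of the 10 lists the folds were whole multiples of a single step, to within 0.000568 of a step, with 1 p-value per fold, so 1 background served all peaks of a list and no local one was applied. Genes, their ends and promoters came from NCBI RefSeq GRCh38.p14; the promoter table matched 4 of the 6 members (not INTS9 and INTS10) and gave their strand. Covered shares, counts, ranks and overlaps were computed with Python 3.11.15, pandas 2.3.3 and numpy 2.4.6, and the code was tested on simulated peaks. A covered share is the part of a gene and 1 kb either side under peaks of a list, and percentiles compare it with all coding genes in the same list. Groups and replicate numbers are those of the sample titles. Nothing says that replicates came from separate cultures, so their spread may be technical. No p-values were computed, since 2 libraries against 2 cannot go below 0.333 in a two-sided exact permutation test. Counts of members are set beside the share of all coding genes. The 2 input libraries were not used, and the labelled cell type was not checked, since peaks do not measure expression.

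The genes named are the 6 members, genes with an end within 1 kb of theirs, AAMDC, INTS4P1 and INTS4P2, which were added after seeing the gene table, 15 other Integrator and partner genes and 16 cleavage factor genes counted as lists, and the 2 most similar genes per member. Members and lists were chosen with earlier results of these data known. Alternatives were windows of 500 bp and 2 kb, summits in the window, a −log10 q of 5 or more, the 26409 most significant peaks of every list, and each replicate alone.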

Additional observations from a re-analysis of the deposited data

How the results depend on the processing

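The counts of members called at a gene end depended on how many peaks were admitted. Where only peaks reaching a −log10 q of 5 were kept, the counts were 1 for INTS13, 0 for INTS11 and 1 for HDGF, against 4, 1 and 2 with all peaks; 16.9%, 2.39% and 2.34% of coding genes were called at this setting, so the share fell over all genes too. With the 26409 most significant peaks of every list the counts were again 1 for INTS13, 0 for INTS11 and 1 for HDGF, against 10.5%, 4.57% and 6.91% of coding genes. HDGF was called at 1 member with a window of 500 bp and at 1 with the summit in the window. Its replicate 1 peak near the lower end of INTS11 starts over 500 bp from that end and has its summit 1440 bp from it. At these settings 15.3% and 18.5% of coding genes were called for HDGF. A window of 2 kb moved no count by over 1.5 times. From single replicates the counts ranged from 4 to 5 for INTS13 and 1 to 4 for INTS11. They ranged from 2 to 3 for HDGF and 0 to 1 for ZEB1, and ZNF609 stayed at 0. For INTS13, replicate 1 alone gave 5 members, against 79.5% of coding genes, and replicate 2 alone 4, against 68.1%. For HDGF, replicate 1 alone gave 2, against 38.5%, and replicate 2 alone 3, against 34.6%. For ZEB1, replicate 1 alone gave 1, against 13.3%, and replicate 2 alone 0, against 8.48%. For ZNF609 the shares of coding genes were 6.9991% from replicate 1 alone and 3.43% from replicate 2 alone. INTS11 replicate 1 alone gave INTS4, INTS11, INTS13 and INTS14, against 50.02% of coding genes from that list and 22.2% from replicate 2 alone. Covered shares moved by over 1 SD in 13 of the 18 pairs of gene and protein with any coverage at a −log10 q of 5 or more. With lists of equal length 12 of 18 did. The other 12 of the 30 pairs had no peak in either list and could not move. Pairs with peaks in 1 list only could not move by over 1 SD either, since their SD exceeds their mean. These were INTS11 peaks on INTS4 and INTS13, HDGF on INTS9, ZEB1 on INTS11 and INTS13 on INTS10. At a −log10 q of 5 or more every other covered pair moved. In lists of equal length, peaks in both replicates were left on INTS14 for INTS13 (3.70% and 9.54%), HDGF (2.04% and 17.0%) and ZNF609 (7.25% and 2.02%), and on INTS11 for HDGF (27.8% and 14.4%). The ZNF609 replicate 2 list has 26409 peaks and was not cut, so its 2.02% was fixed in advance, while every other list lost peaks. A share from 1 of 2 replicates is within 1 SD of their mean by construction. No paired analysis was possible because the results come from no test.

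Read depth, local background and the reads behind each peak were not available for analysis here, so a gene with no peak is one where none was listed, not one shown to be unbound.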
